A study of Mus musculus with 8 samples.

Results

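The genes of cholesterol synthesis, its control and its export were compared in brain tissue of mice labelled WT and Nsun5-KO by bulk RNA sequencing. The set has 30 genes, taken by gene symbol from a table of 54532 genes, and all 30 were present once. It holds 19 enzymes of synthesis, 6 genes of the SREBP control circuit and 5 genes of turnover and transport. The mice were male, 3 months old and from the same litter, and 4 libraries of the genotype WT and 4 of the genotype Nsun5-KO were analysed, while the protocol speaks of 5 mice each. All animals had been anaesthetised with pentobarbital at 50 mg/kg. The labels name no strain and do not say how Nsun5, which encodes a methyltransferase of ribosomal RNA, was disrupted. The study asks how loss of Nsun5 bears on myelin and sleep.

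Cholesterol is built from acetyl-CoA through mevalonate and farnesyl diphosphate to squalene, which is folded into lanosterol and trimmed to the final sterol. When membranes of the endoplasmic reticulum are short of sterol, SCAP escorts the SREBP transcription factors to the Golgi, where they are released to switch on the genes of the pathway, and the INSIG proteins hold SCAP back when sterol is plentiful. The brain makes its own cholesterol, most of it for myelin, astrocytes pass it on in particles that carry ApoE, and neurons remove the excess by converting it to a hydroxylated form that leaves the brain.

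SREBP factors act at promoters together with NF-Y, so the promoters of the set were searched for the letters of both sites. RefSeq promoters (GRCm38.p6, 250 bases before to 50 after a transcript start) were matched for 25 of the 30 genes, Fdps, Fdft1, Sqle, Stard4 and Abcg1 being the others. On either strand, the NF-Y motif CCAAT lay in at least 1 promoter of 15 of 16 synthesis enzymes (93.8%), 4 of 5 control genes and 1 of 4 turnover and transport genes, Cyp46a1, against 41.1% of the 27025 genes of the table. The sterol regulatory element searched, TCACNCCAC, lay in 1 of the 25 genes (4.0%), Hmgcs1, against 1.44%. The E-box CACGTG lay in 6 of 25 (24.0%) against 8.09%, and no 2 different motifs overlapped in the 35 promoters of the set. These shares describe letters in a window, with no test. A gene with more promoters had more chances to hold a motif, and the shares were not matched for this. The 16 synthesis enzymes had 19 promoters, the 5 control genes 10, the 4 turnover and transport genes 6, and the 27025 genes 32851. The bases before the start are shown for Hmgcs1, the gene with both SREBP and NF-Y letters, for Ebp and Cyp46a1, whose levels did not overlap between genotypes, and for Srebf1, which had the smallest p of the control genes. The promoter shown for Srebf1 is 1 of 3 in the table, of which 2 hold CCAAT. Each is written 5′ to 3′ on the gene's strand and ends at the base before the start. Capitals mark CCAAT, its reverse complement ATTGG, or the sterol element.
Hmgcs1 (chr13:119690101-119690350, plus strand): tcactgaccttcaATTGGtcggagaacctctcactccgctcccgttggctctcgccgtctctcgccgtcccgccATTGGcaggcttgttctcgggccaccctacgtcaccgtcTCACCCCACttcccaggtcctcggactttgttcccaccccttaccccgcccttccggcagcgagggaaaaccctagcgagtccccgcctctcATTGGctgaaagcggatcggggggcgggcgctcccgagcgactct
Ebp (chrX:8193513-8193762, minus strand): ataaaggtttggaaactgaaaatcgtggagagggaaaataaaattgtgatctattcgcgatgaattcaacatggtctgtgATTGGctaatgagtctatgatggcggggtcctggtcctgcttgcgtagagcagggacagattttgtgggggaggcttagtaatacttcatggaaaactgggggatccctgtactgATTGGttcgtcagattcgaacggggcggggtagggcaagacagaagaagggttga
Srebf1 (chr11:60222582-60222831, minus strand): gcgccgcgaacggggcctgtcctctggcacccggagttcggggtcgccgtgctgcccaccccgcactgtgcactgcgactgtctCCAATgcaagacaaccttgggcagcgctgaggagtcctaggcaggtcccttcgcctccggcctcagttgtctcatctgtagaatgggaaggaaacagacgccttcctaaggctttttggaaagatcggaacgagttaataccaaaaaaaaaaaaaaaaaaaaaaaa
Cyp46a1 (chr12:108334066-108334315, plus strand): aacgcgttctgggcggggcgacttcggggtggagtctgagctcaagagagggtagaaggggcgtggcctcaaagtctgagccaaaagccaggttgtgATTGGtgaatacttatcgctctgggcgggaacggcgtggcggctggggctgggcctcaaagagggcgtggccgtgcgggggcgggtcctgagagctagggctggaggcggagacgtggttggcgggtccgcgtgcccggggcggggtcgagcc
In Hmgcs1 the sterol element began 137 bases before the start, and ATTGG began 237, 176 and 45 bases before it. Ebp held ATTGG 170 and 55 bases before its start.

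The libraries held 15642086 to 17829523 counted reads each. Levels are given as CPM, reads scaled to library size. Nsun5 itself stood at 5.74 ± 0.538 CPM in WT and at 6.28 ± 0.887 CPM under the Nsun5-KO label, which is not lower (SD, n = 4; edgeR log2 fold change 0.13, adjusted p = 0.817). The level of this gene did not bear out the genotype labels, so directions are given by label throughout. Although the design speaks of whole brain, the cerebellar markers Gabra6 and Pcp2 had at most 30 and 19 counts in a library. WT replicates 1 and 2 stood apart on the first principal component of all genes tested, which held 25.7% of the variance. The labels do not say whether each library is a separate animal, so p-values measure the spread between libraries.

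No cholesterol gene passed the test between genotypes. The edgeR quasi-likelihood test, run over 16062 genes with Benjamini-Hochberg adjustment, called 0 of the 30 genes and 0 of all genes tested (0.0%). DESeq2 called 0 of the 30, against 0.583% of the genes it tested. At an unadjusted edgeR p below 0.05 there was 1 of the 30 (10.4% of all genes tested), with 0 higher (5.3%) and 1, Fdps, lower (5.05%). The CPM of the genotypes did not overlap for 3 of the 30 (5.7% of all genes tested), 2 higher (2.99%), Ebp and Cyp46a1, and 1 lower (2.71%), Fdps. Nothing is read from the p or the separation of Fdps, because it passed the low-count filter through WT alone. The genes divided evenly, 15 above and 15 below WT; their median log2 fold change was -0.011 beside -0.005 over all genes tested. Apart from Fdps, the log2 fold changes ran from -0.17 for Nsdhl to 0.19 for Ebp.

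The intervals bound the size of a change. The 95% interval of the fold change, which is not adjusted for the number of genes, lay within 1.5-fold of WT in both directions for 29 of the 30 genes (96.7%), Fdps being the exception, beside 66.3% of all genes tested. It lay within 1.25-fold for 18 of the 30 (60.0%), beside 35.9%. The median standard error (SE) was 0.09 in the set and 0.125 over all genes tested. The shares were not compared at like expression level. They do not show that the set is steadier than other genes of its level. For Hmgcs1, the synthase that makes HMG-CoA, the interval of the log2 fold change was -0.083 to 0.18. For Sc5d, a late desaturase, it was -0.13 to 0.15. Hmgcs1 and Sc5d had the smallest SE of the set (0.06 and 0.065). Apart from Fdps, the widest interval was that of Tm7sf2, -0.392 to 0.345.

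**Figure D1:**
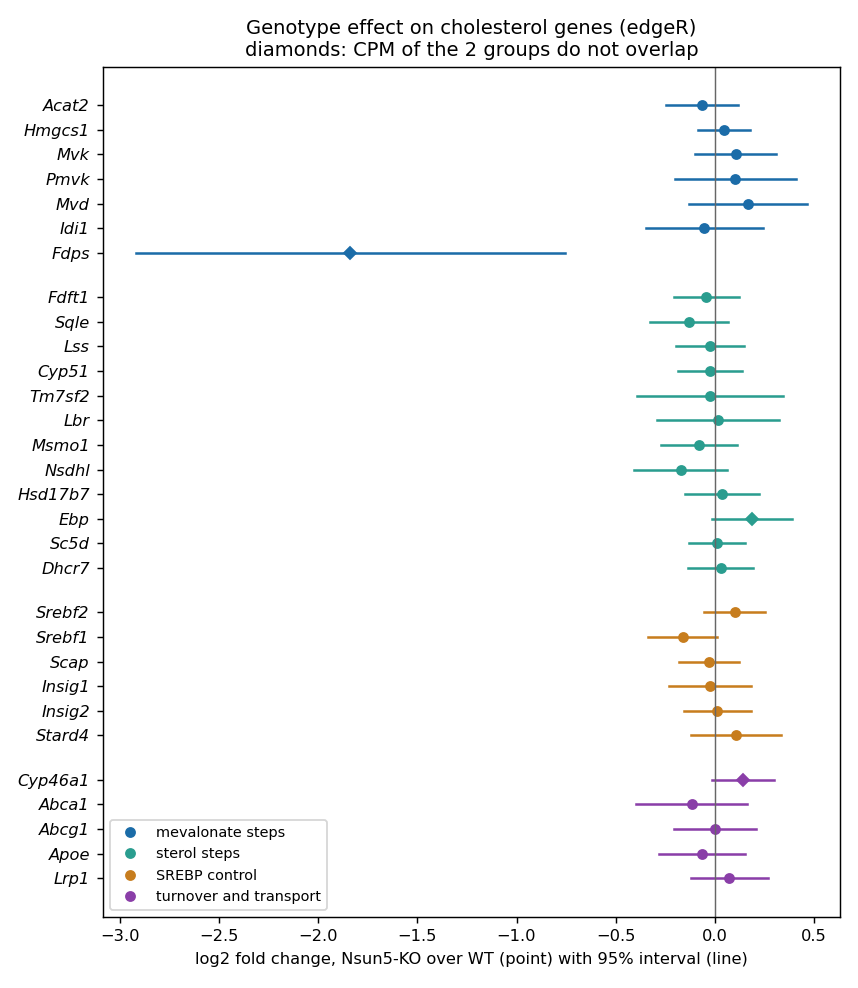
Genotype effect on each of the 30 genes: the x axis is the log2 fold change of the Nsun5-KO-labelled libraries over WT (point) with its 95% interval (line) from edgeR, and rows are genes coloured by role. All points except Fdps (-1.84) lie between -0.17 and 0.19, and diamonds mark Fdps, Ebp and Cyp46a1, whose CPM did not overlap between genotypes.

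Levels spanned a wide range within the set. Per length of gene, in the deposited FPKM (fragments scaled to gene length and library size), Apoe stood first in WT at 527 ± 78.5 (SD, n = 4). Cyp46a1 at 50.0 ± 3.06 and Hmgcs1 at 49.7 ± 0.649 FPKM followed and had overlapping ranges. Srebf2 at 33.5 ± 2.18, Insig1 at 28.5 ± 1.51 and the squalene synthase gene Fdft1 at 23.9 ± 2.00 FPKM came next, each of the first 2 separate from its lower neighbour. Over the whole order, 8 of 29 neighbouring pairs had WT ranges that did not overlap. The lowest values were those of Lss at 2.74 ± 0.172, Lbr at 2.46 ± 0.420, Tm7sf2 at 2.27 ± 0.563 and Fdps at 0.230 ± 0.0719 FPKM. This order is per deposited length, and it depends on that length. The Fdps value is not read as the level of its transcript, most of whose bases also belong to another annotated gene, as given below. The deposited length exceeded the longest coding transcript in GENCODE M21 by the largest ratio for Tm7sf2 (5593 against 1498 bases), Fdps (4208 against 1382), Msmo1 (6144 against 2044) and Lss (10787 against 4667).

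In the early, mevalonate part of synthesis, 4 of 7 enzymes lay above WT and 3 below, with a median log2 fold change of 0.047. Fdps, which makes farnesyl diphosphate (ENSMUSG00000059743, chromosome 3, 89093588 to 89101959, mm10), was the member with the smallest p of the whole set. It was counted 16, 12, 13 and 25 times in WT, in the order of the replicates, and 1, 3, 5 and 9 times under the Nsun5-KO label. Every library labelled Nsun5-KO was below every WT library. Fdps passed the low-count filter in 4 WT libraries and 0 of the others. A gene that enters the test in this way shows this order by selection, so the order is not taken as support. The same selection bears on its p, fold change and read ratio, which are given as description only. The log2 fold change was -1.84 (SE 0.50, 95% interval -2.92 to -0.76, edgeR adjusted p = 0.313; DESeq2 adjusted p = 0.138). The ratio of WT to Nsun5-KO reads was 3.64, with an exact 95% interval of 2.14 to 6.52 that covers counting error only.

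Most bases of the coding Fdps transcripts also belong to another annotated gene. In GENCODE M21, which gives 28 of the 30 genes the same start and end as the deposited table, the exons of Gm43738 on the same strand cover 81.3% of the bases of the coding transcript Fdps-203 and 76.4% of Fdps-201. Gm43738 had 0 counts in every library. Fdps entered the test through WT alone, and the difference in these few reads supports no statement on the transcript as a whole. How the counter treated reads shared by both genes is not given in the sources used here, and its part in the result was not tested. Among the other members the most shared coding transcript was that of Fdft1, with 27.0% of its bases in exons of Ctsb on the opposite strand, a gene with 8987 to 12063 counts per library. The library kit does not mark the strand, so reads from that stretch cannot be told apart.

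**Figure D2:**
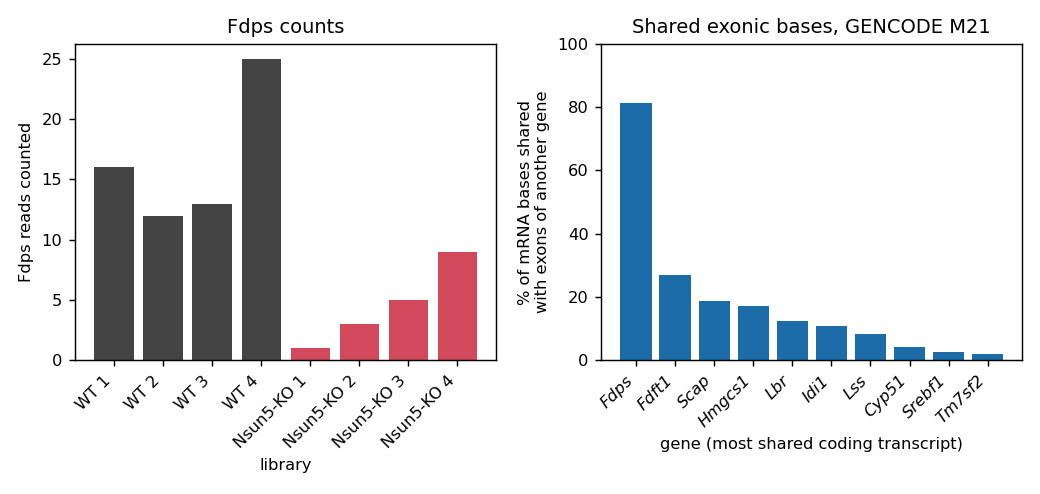
Left, reads counted for Fdps in each library (bars; grey WT, red Nsun5-KO-labelled libraries), with 12 to 25 in WT and 1 to 9 in the others. Right, the share of messenger bases that lie in exons of another gene in GENCODE M21, for the most shared coding transcript of the 10 members with the highest shares, with Fdps at 81.3% and Fdft1 next at 27.0%.

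The other enzymes of the mevalonate steps had ample reads and overlapped between genotypes. Mvd, the decarboxylase that forms isopentenyl diphosphate, had 14.9, 16.7, 19.5 and 19.7 CPM in WT replicates 1 to 4 and 19.6, 24.9, 16.7 and 18.3 CPM in replicates 1 to 4 labelled Nsun5-KO. A single library, replicate 2 labelled Nsun5-KO, exceeded all WT libraries. The log2 fold change was 0.17 (SE 0.14, edgeR adjusted p = 0.719), and it was 0.035 without that library and 0.090 without WT replicate 1. Mevalonate kinase, Mvk, had 17.97, 16.1, 17.4 and 17.7 CPM in WT and 16.7, 20.02, 18.96 and 18.8 CPM in the Nsun5-KO-labelled libraries. Of these, 3 of 4 lay above all WT libraries (log2 fold change 0.11, SE 0.094, edgeR adjusted p = 0.745). Hmgcs1 was the steadiest of the group, at 228 to 233 CPM in WT and 229 to 250 CPM in the others. The kinase gene Pmvk (log2 fold change 0.10), the thiolase gene Acat2 (-0.063) and the isomerase gene Idi1 (-0.054) had adjusted p values from 0.842 to 0.923.

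In the sterol steps, from squalene onward, 5 of 12 enzymes lay above WT and 7 below, with a median log2 fold change of -0.023. Ebp, the isomerase that moves a double bond in the sterol ring (ENSMUSG00000031168, chromosome X, 8185329 to 8193512), had 14.1, 14.75, 15.1 and 13.2 CPM in WT and 16.03, 16.5, 16.5 and 15.9 CPM in the Nsun5-KO-labelled libraries. All 4 of these were above the highest WT library, which held for 2.99% of all genes tested. The log2 fold change was 0.19 (SE 0.093, 95% interval -0.016 to 0.39, edgeR adjusted p = 0.526), and it stayed between 0.146 and 0.215 when single libraries were left out.

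Nsdhl, a dehydrogenase that helps remove methyl groups from the ring and lies on chromosome X like Ebp, went the other way. It had 24.7, 25.2, 20.8 and 20.9 CPM in WT and 19.6, 18.3, 19.8 and 23.6 CPM in the Nsun5-KO-labelled libraries. Replicate 4 labelled Nsun5-KO lay within the WT range and the other 3 below it (log2 fold change -0.17, SE 0.11, edgeR adjusted p = 0.62), and the value was -0.041 without WT replicates 1 and 2. Squalene epoxidase, Sqle, had 80.3, 72.6, 58.4 and 66.8 CPM in WT and 63.5, 61.8, 65.1 and 63.8 CPM in the Nsun5-KO-labelled libraries. The WT libraries spread widely and the others lay inside that spread (log2 fold change -0.13, SE 0.091, edgeR adjusted p = 0.663), with 0.019 once WT replicates 1 and 2 were left out and -0.056 without WT replicate 1 alone.

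The other 9 sterol enzymes were closer still to WT. Msmo1, which oxidises the ring methyl groups, was at -0.080 on the log2 scale and Fdft1 at -0.044. The lanosterol demethylase Cyp51 (-0.025), the sterol reductase Tm7sf2 (-0.024) and the lanosterol synthase Lss (-0.023) were nearly level. Sc5d (0.011), Lbr (0.015), which is both a sterol reductase and a receptor of the nuclear lamina, Dhcr7 (0.029), the enzyme of the final reduction, and Hsd17b7 (0.037) lay as close on the other side. The edgeR adjusted p of these 9 ran from 0.798 to 0.981. Of the sterol enzymes, Tm7sf2 had the widest spread within WT, with a coefficient of variation of 24.8%, and its deposited coordinates differ from those in GENCODE M21.

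**Figure D3:**
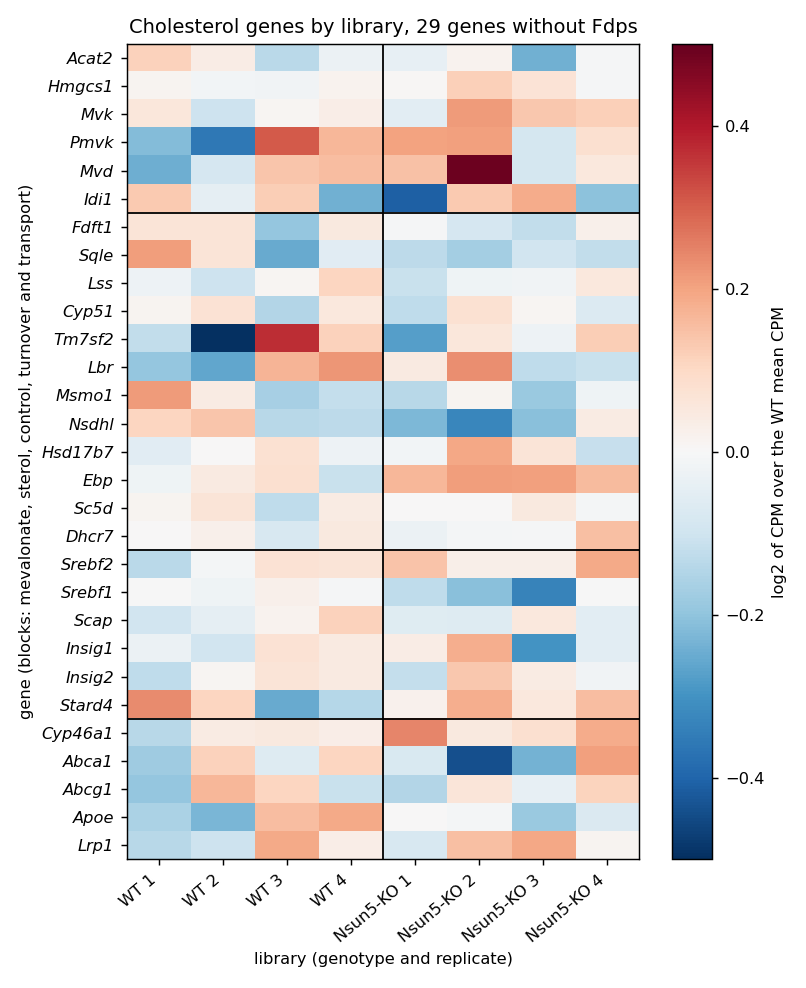
Log2 of the CPM over the WT mean CPM (colour) for 29 genes (rows, without Fdps) in the 8 libraries (columns), with lines between the mevalonate, sterol, control, and turnover and transport blocks and between genotypes. No value exceeds 0.499 in size, and 94.0% lie within 0.25 of the WT mean.

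The SREBP control genes were split evenly, 3 above and 3 below WT, at a median log2 fold change of -0.006. Srebf1, the factor best known for fatty acid synthesis (ENSMUSG00000020538, chromosome 11, 60199089 to 60222581), had 53.3, 52.6, 54.3 and 53.0 CPM in WT, the smallest relative spread among the control genes. It had 48.9, 46.1, 42.3 and 53.2 CPM in the Nsun5-KO-labelled libraries, so 3 of 4 lay below all WT libraries and replicate 4 lay among them. The log2 fold change was -0.16 (SE 0.079, 95% interval -0.34 to 0.010, edgeR adjusted p = 0.507). It was -0.22 without replicate 4 labelled Nsun5-KO, and -0.10 without replicates 1 and 3, the libraries lowest in the myelin markers described below. Leaving out replicate 1 alone gave -0.176, and leaving out replicate 3 alone, the lowest in Srebf1, gave -0.109. The part of the myelin level in these values was not tested.

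Srebf2, the factor that governs cholesterol synthesis, had 221, 241, 255 and 253 CPM in WT and 268, 248, 248 and 277 CPM in the Nsun5-KO-labelled libraries. All 4 of these were above the WT mean, and 2 of 4 were within the WT range (log2 fold change 0.10, SE 0.071, edgeR adjusted p = 0.664; 0.031 without WT replicates 1 and 2). Stard4, a carrier of sterol between membranes, had 54.3, 49.8, 38.7 and 41.8 CPM in WT and 46.9, 52.3, 47.8 and 51.4 CPM in the Nsun5-KO-labelled libraries. The WT libraries fell into a high pair, replicates 1 and 2, and a low pair. All 4 Nsun5-KO-labelled libraries lay above the low pair and 2 of them above WT replicate 2 (log2 fold change 0.10, SE 0.10, edgeR adjusted p = 0.775). Without WT replicates 1 and 2 the log2 fold change of Stard4 was 0.30 (edgeR adjusted p = 0.644). Scap was at -0.030, and the retention factors Insig1 and Insig2 were at -0.024 and 0.012, with adjusted p values from 0.917 to 0.973. Insig1, itself induced by SREBP, ranged from 83.2 to 93.4 CPM in WT and from 72.2 to 101 CPM in the Nsun5-KO-labelled libraries.

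Of the turnover and transport genes, 3 of 5 lay above WT and 2 below, with a median log2 fold change of 0.001. Cyp46a1, the neuronal hydroxylase that prepares cholesterol for removal (ENSMUSG00000021259, chromosome 12, 108334381 to 108362234), had 151, 171, 172 and 170.1 CPM in WT and 197, 172, 175.5 and 189 CPM in the Nsun5-KO-labelled libraries. The groups did not overlap, but the highest WT library and the lowest of the others were only 0.00849 CPM apart. The log2 fold change was 0.14 (SE 0.072, 95% interval -0.014 to 0.30, edgeR adjusted p = 0.53), and it was 0.096 without WT replicate 1, the lowest library. The summed CPM of 9 neuron markers, 8 of which lay above WT, was 7046 to 7522 in WT and 8195 to 8834 in the Nsun5-KO-labelled libraries, and its part in the Cyp46a1 values was not tested. In bulk tissue, fewer cells of a type and less RNA per cell cannot be told apart.

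Abca1, the exporter that loads cholesterol onto lipoproteins, had 35.9, 44.0, 38.9 and 43.7 CPM in WT and 38.5, 29.9, 34.5 and 46.9 CPM in the Nsun5-KO-labelled libraries. These reached beyond WT at both ends (log2 fold change -0.12, SE 0.13, edgeR adjusted p = 0.794), and the value was -0.25 without Nsun5-KO replicate 4 and -0.028 without Nsun5-KO replicate 2. The endocytic receptor gene Lrp1 had 256, 262, 321 and 288 CPM in WT and 267, 313, 322 and 285 CPM in the Nsun5-KO-labelled libraries. The groups covered nearly the same range (log2 fold change 0.073, SE 0.089, edgeR adjusted p = 0.825), and the value was -0.042 without WT replicates 1 and 2. Apoe had 1018, 969, 1267 and 1296 CPM in WT and 1139, 1130, 998.9 and 1080 CPM in the Nsun5-KO-labelled libraries. WT replicates 1 and 2 were low and 3 and 4 high, with the other genotype mostly between (log2 fold change -0.065, SE 0.099, edgeR adjusted p = 0.862). Without WT replicates 1 and 2 it was -0.24 (edgeR adjusted p = 0.665). The exporter gene Abcg1 was at 0.001, with an adjusted p = 0.998.

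The flat level of the set stood beside a lower level of myelin genes in the same libraries. The summed CPM of the 19 synthesis enzymes was 976 ± 32.4 in WT and 969.8 ± 28.0 in the Nsun5-KO-labelled libraries (SD, n = 4), with ranges of 932 to 1011 and 942 to 1008. The sum over 15 oligodendrocyte myelin markers was 7478 to 8119 CPM in WT and 4867 to 6704 CPM in the others, and all 15 lay below WT (median log2 fold change -0.41). EdgeR called 0 of these 15 and DESeq2 called 3 (0.583% of all genes), and for 13 the unadjusted edgeR p was below 0.05 in the lower direction (5.05% of all genes). Other marker lists were lower too. All 8 choroid plexus markers lay below WT (median log2 fold change -0.89), 0 of them at an unadjusted edgeR p below 0.05, and their sums overlapped between genotypes. The sum of 10 hypothalamus markers was 32.6 to 150.4 CPM in WT and 14.9 to 23.9 CPM in the Nsun5-KO-labelled libraries, with all 7 tested below WT and 4 called by DESeq2. The sum of 6 ependyma markers was 22.1 to 36.8 CPM in WT and 10.6 to 20.1 CPM in the others, with all 6 below WT and 2 called by DESeq2. The hypothalamus and ependyma sums did not overlap between genotypes. The part of these 3 lists in the values of the cholesterol genes was not tested. Replicates 1 and 3 labelled Nsun5-KO had the lowest myelin sums, 5032 and 4867 CPM. They also had the lowest synthesis sums under that label, 942 and 960.0 CPM, beside 1008 and 968.9 CPM in replicates 2 and 4. In WT, replicate 3 had the highest myelin sum, 8119 CPM, and the lowest synthesis sum, 932 CPM. A relation between the 2 sums was not tested. The 13 astrocyte markers summed to 4393 to 5077 CPM in WT and 4739 to 5240 CPM in the others, with 5 above and 8 below WT. No marker of these lists was at 0 in every library, though only 7 of the 10 hypothalamus markers passed the low-count filter. Whether some of these 7 passed through WT libraries alone was not examined. Genes that do so lie lower by selection. The difference between the myelin and the cholesterol genes was not tested.

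**Figure D4:**
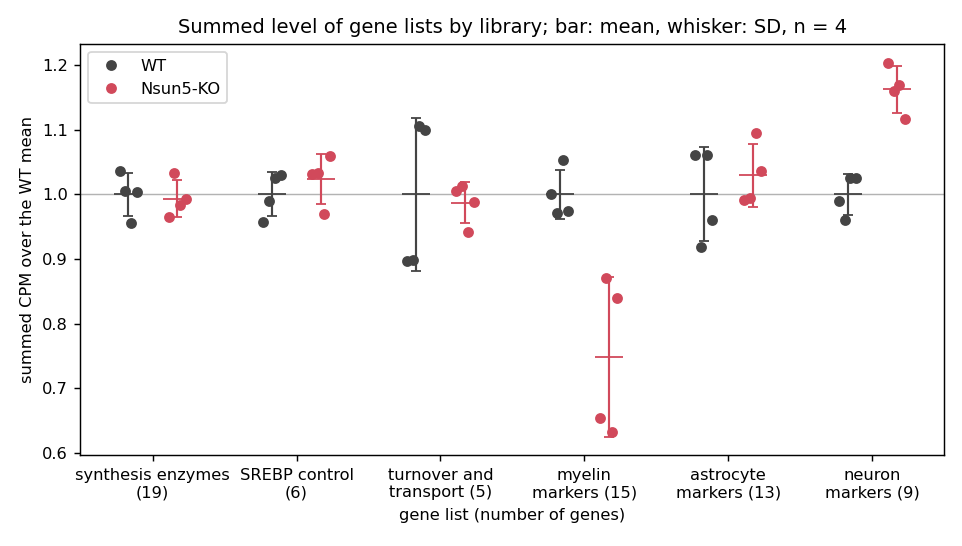
Summed CPM of 6 gene lists in each library, divided by the WT mean of that list (points; bars, mean; whiskers, SD, n = 4). The synthesis, control, transport and astrocyte lists overlap between genotypes, while the myelin sums (4867 to 6704 CPM) lie below and the neuron sums (8195 to 8834 CPM) above all WT libraries.

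Further genes of sterol control, transport and fatty acid synthesis, from lists chosen by function, were also called in 0 cases by edgeR. Among 18 further control genes, 1 upward and 1 downward reached an unadjusted p below 0.05, about the share of all genes tested (5.3% and 5.05%). Rnf145, a ubiquitin ligase of the endoplasmic reticulum, was at 0.15, and Erlin2, a scaffold for sterol-regulated degradation, was at -0.18 (edgeR adjusted p = 0.458 for each). The groups of Rnf145 did not overlap in CPM, as for 2.99% of all genes tested upward, but did in FPKM. Nfya, a subunit of NF-Y, was at 0.17 (0.545). Among 27 further transport genes, 2 upward and 2 downward did so, again near that share. The CPM of the genotypes did not overlap for 2 of the 27 upward (2.99% of all genes tested) and 1 downward, Apod (2.71%). Gramd1b, which moves cholesterol from the plasma membrane to the endoplasmic reticulum, had 166 to 189 CPM in WT and 201 to 229 CPM in the Nsun5-KO-labelled libraries, with no overlap (log2 fold change 0.24, SE 0.070, edgeR adjusted p = 0.323). Its relative Gramd1c, at a mean of 1.76 CPM in WT, was at -1.22 (0.34). Apod, a lipid carrier of oligodendrocytes among other cells, had 164 to 238 CPM in WT and 140.3 to 160.1 CPM in the others (log2 fold change -0.34, edgeR adjusted p = 0.355), beside the lower summed level of the myelin markers, whose part in the result was not tested.

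Fatty acid genes that SREBP factors also control gave a median log2 fold change of -0.025, with 5 of 14 above and 9 below WT, and 1, downward, reached an unadjusted p below 0.05, also near the share of all genes (5.05%). Fads2, a desaturase of polyunsaturated fatty acids, had 89.0 to 104 CPM in WT and 71.5 to 91.3 CPM in the Nsun5-KO-labelled libraries (log2 fold change -0.26, SE 0.084, edgeR adjusted p = 0.377). The fatty acid synthase gene Fasn was at 0.14 (0.496) and the acyltransferase gene Gpam at 0.091 (0.749).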

How the data were processed

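The deposited counts are whole reads per gene that the authors had not normalised, and the deposited FPKM follow from them by division by gene length and by 1 constant for each library. Reads were aligned with HISAT2 2.0.5 to mm10, per the submitters' processing notes; which counter and annotation were used is not given in the sources used here. Per the labels' protocols, library preparation used the NEBNext Ultra RNA kit. Within each genotype all pairs of libraries differed by more than sampling noise (chi-square per degree of freedom 7.22 to 20.4).

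The test was that of edgeR 4.0.16 (R 4.3.3): filterByExpr by group (16062 genes kept), scaling by the trimmed mean of M values, robust quasi-likelihood F test over all 8 libraries without covariates, Benjamini-Hochberg adjustment over all genes tested and a threshold of 0.05. Log2 fold changes are Nsun5-KO over WT. Precision is limited by the counts behind each gene and by the spread between libraries. Counts were simulated for this comparison (15852 genes, 200 changed, all of these with an average log2 CPM above 1). On them the test recovered 12% of genes changed 1.25-fold, 62% changed 1.5-fold, 90% changed 2-fold and 96% changed 4-fold. Unchanged genes made up 7.14% of the calls. Each gene was drawn independently, without structure shared between libraries, and the 200 planted changes ease the adjustment. Recovery in the measured libraries may therefore be lower. Alternatives were DESeq2 1.42.0, limma 3.58.1 with voom and sample weights or on log2(FPKM + 1), other scalings, no low-count filter, the replicate number as a block, and libraries left out.

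The genes and lists were chosen with earlier results of these data known. Full values are given for the 3 members with the smallest p in each of 4 role groups (mevalonate enzymes, sterol enzymes, control, turnover and transport), for members whose groups do not overlap and for Nsun5, and those of Apoe were added after its values were seen. Beyond the set, up to 3 genes with the smallest p of each further pathway list are named. A further list of synthesis genes is not reported here. Marker lists of neurons, astrocytes, myelin, hypothalamus and ependyma are given beside the results. Those of microglia (summed CPM 388 to 431 in WT and 383 to 411 in the Nsun5-KO-labelled libraries), endothelium (328 to 356 and 307 to 362), choroid plexus (315 to 1176 and 55.9 to 1197) and blood (57.3 to 138 and 60.2 to 202) were measured in the same way.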

Additional observations from a re-analysis of the deposited data

Results flagged for a closer look

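In 66 groups of 4 libraries (30 genes and the sums of 3 role groups in each genotype), a single library was set apart from the other 3 by a gap over Dixon's 95% limit in 4 cases, where chance gives about 1 in 20. Fdft1 was low in WT replicate 3, at 89.2 CPM against 105 to 107 CPM in the other WT libraries. Cyp46a1 was low in WT replicate 1, at 150.9 CPM against 170.1 to 172 CPM. Dhcr7 was high in replicate 4 labelled Nsun5-KO, at 37.6 CPM against 33.2 to 33.7 CPM. Scap was high in replicate 3 labelled Nsun5-KO, at 69.5 CPM against 64.0 to 64.6 CPM.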

How the results depend on the processing

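The 30 genes gave 0 calls under every alternative, 17 in all, while the count over all genes was 0 by edgeR, 94 by DESeq2, 68 by edgeR without the low-count filter and 0 to 2 with 1 library left out. Medians with 1 library left out were -0.036 to 0.014 for synthesis, -0.033 to 0.032 for control and -0.061 to 0.046 for turnover and transport. After seeing the data, pairs of libraries were left out too. Without WT replicates 1 and 2 the control median was -0.064, and the sign turned for Acat2 (0.014), Pmvk (-0.136), Fdft1 (0.020), Sqle (0.019), Cyp51 (0.017), Lbr (-0.182), Msmo1 (0.059), Insig2 (-0.044), Abcg1 (-0.004) and Lrp1 (-0.042). Without replicates 1 and 3 labelled Nsun5-KO the control median was 0.063, and it turned for Acat2 (0.005), Lss (0.015), Cyp51 (0.007), Tm7sf2 (0.087), Sc5d (-0.005) and Insig1 (0.068). Upper-quartile scaling turned Lbr (-0.007), Sc5d (-0.012), Insig2 (-0.011) and Abcg1 (-0.023), and voom with sample weights turned Lbr (-0.015), Insig2 (-0.024) and Abcg1 (-0.012). With 1 library left out, values crossed 0 for Pmvk (-0.002 to 0.223), Idi1 (-0.140 to 0.047), Lss (-0.060 to 0.011), Cyp51 (-0.069 to 0.008), Tm7sf2 (-0.161 to 0.123), Lbr (-0.068 to 0.094), Hsd17b7 (-0.024 to 0.084), Sc5d (-0.027 to 0.029), Dhcr7 (-0.016 to 0.047), Scap (-0.063 to 0.006), Insig1 (-0.103 to 0.060), Insig2 (-0.035 to 0.053) and Abcg1 (-0.061 to 0.057). In all, 46 of 510 values had the other sign, the cause was not tested, and 12 genes kept their sign throughout. Fdps ranged from -2.37 to -1.53 with 1 library left out and was -0.21 on log2(FPKM + 1), a scale that understates changes of low genes.

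Replicate numbers 1 to 4 occur in both genotypes, but no label says that they pair animals. Correlations of deviations from the group means ran from -0.213 to 0.063 for equal numbers and from -0.167 to 0.182 for others, and 0 of 8 libraries correlated best with their own number. With the replicate block the test again called 0 genes, and Fdps was at -1.91.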

Other observations

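Osbpl1a, which encodes a protein that binds oxysterols, was singled out after its values were seen. It had 256, 213, 316 and 281 CPM in WT and 375, 393, 366 and 284 CPM in the Nsun5-KO-labelled libraries. Replicates 1 to 3 so labelled lay above all WT libraries and replicate 4 among them (log2 fold change 0.41, SE 0.13, edgeR adjusted p = 0.361; DESeq2 adjusted p = 0.117).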
